A study of Mus musculus with 15 samples.

Results

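Iron storage, iron transport and heme metabolism were followed through 10 genes of the mouse cortex: Fth1, Ftl1, Trf, Tfrc, Slc11a2, Slc11a1, Slc40a1, Cp, Hmox1 and Alas2. They were picked by name out of 20610 genes in the deposited expression table, with their levels in these libraries already known. Their levels are therefore given as a description without a test. The libraries came from wild-type (WT) male mice at postnatal day 28. Neurons, astrocytes and microglia were isolated from the cortex with magnetic beads, and each cell type is represented by 5 polyA RNA-seq libraries, 15 altogether. No treatment or mutant was part of the comparison, which asked how the 3 cell types differ in expression. The labels do not tie the libraries to single animals, so every SD and p-value measures the spread between these libraries, which may be technical. Levels are in TPM, transcript abundances corrected for transcript length and scaled to the same total in every library. TPM keeps no read depth, so the depth behind each value is unknown.

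Each isolation was checked with marker lists. Microglia markers summed to 70685 to 110074 TPM in the microglia libraries and to at most 227 TPM in the others. Markers of mature oligodendrocytes, the myelin-forming cells, summed to 69449, 51578, 6670, 250 and 8131 TPM in microglia libraries 1 to 5. Astrocyte markers summed to 21915 to 25208 TPM in the astrocyte libraries. In the libraries labelled neuron, 10 neuron markers summed to 736 to 1563 TPM, while 12 markers of endothelial cells, which line blood vessels, summed to 30097 to 44448 TPM. The endothelial sum was 2285 to 3107 TPM in astrocytes and 379 to 809 TPM in microglia. Markers of mural cells, which surround blood vessels, summed to 3026 to 5646 TPM in the libraries labelled neuron. Their sum was 1933 to 2636 TPM in astrocytes and 109 to 276 TPM in microglia. Every level labelled neuron below comes from libraries with that composition. Differences between cell types in these bulk libraries cannot tell fewer cells of a type from less RNA per cell.

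Cells take up most of their iron bound to transferrin, a plasma protein that binds the transferrin receptor and is carried into endosomes. A metal transporter moves the iron into the cytosol, where it is used for heme and iron-sulfur clusters, stored in ferritin, or exported by ferroportin with the help of a ferroxidase. Much of this is controlled after transcription. Iron regulatory proteins bind a short RNA hairpin, the iron-responsive element, when iron is scarce. Binding near the start of an mRNA blocks its translation, and binding behind the coding sequence of the transferrin receptor mRNA protects it from decay. An mRNA level therefore need not follow the protein level for these genes, and protein was not measured here.

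The hairpins are shown first because they are the sequence feature by which several of these mRNAs are regulated together. In GENCODE vM21 transcripts (GRCm38/mm10), the sense strand of both untranslated regions was searched for a C, then 5 bases, the loop CAGTGN, and 5 bases that pair with the 5 before the loop. G-U pairs were allowed. This pattern was found in 5 of the 10 genes. It lay in the 5′ untranslated region of Fth1, Ftl1, Slc40a1 and Alas2, against 31 of 20429 genes (0.152%), and in the 3′ untranslated region of Tfrc, against 125 genes (0.612%). Each window of 30 bases is printed 5′ to 3′ on the gene's strand, with the 6-base loop in capitals.
Fth1, chr19:9982731-9982760, plus strand: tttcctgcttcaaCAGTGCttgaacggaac
Ftl1, chr7:45459779-45459808, minus strand: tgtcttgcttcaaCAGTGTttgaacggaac
Slc40a1, chr1:45925465-45925494, minus strand: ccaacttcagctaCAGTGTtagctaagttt
Alas2, chrX:150547457-150552149, plus strand, joined across an intron: tttggttcgtcctCAGTGCagggcaacagg
Tfrc, chr16:32631218-32631247, plus strand: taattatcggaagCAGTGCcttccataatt
Tfrc, chr16:32631597-32631626, plus strand: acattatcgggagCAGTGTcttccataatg
Tfrc, chr16:32631662-32631691, plus strand: tctatatcggagaCAGTGAtctccatatgt
Tfrc, chr16:32631709-32631738, plus strand: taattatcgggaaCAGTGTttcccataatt
Tfrc carried 4 such windows, and each of the other 4 genes carried 1. A match is a description of the sequence, and genes without one lack only these letters in the transcripts searched.

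The 10 genes fell into several patterns across the cell types. Alas2, Tfrc, Cp and Slc40a1 had their highest mean in the neuron libraries, and Trf, Slc11a1 and Hmox1 had theirs in microglia. Ftl1 was high in both and lower in astrocytes, Fth1 overlapped between all cell types with a wide spread within them, and Slc11a2 was low everywhere. All 10 passed the filter of at least 1 TPM in at least 5 libraries that 13351 genes passed, Slc11a1 only through its microglia libraries. The groups did not overlap for 6 of the 10 in each of the 3 comparisons, beside 39.0% of all tested genes between neurons and astrocytes, 54.3% between neurons and microglia, and 58.4% between astrocytes and microglia. Log2 differences below are on the log2(TPM + 1) scale, which understates the change of low genes, and folds of the 10 genes are ratios of mean TPM. The median difference over all tested genes was -0.03 for neuron minus astrocyte, 0.48 for neuron minus microglia and 0.57 for astrocyte minus microglia. Median-of-ratios scaling moved the last 2 of these medians by -0.51 and -0.54, and quantile normalization by -0.45 and -0.52, so small differences from microglia turn on the scaling.

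**Figure D1:**
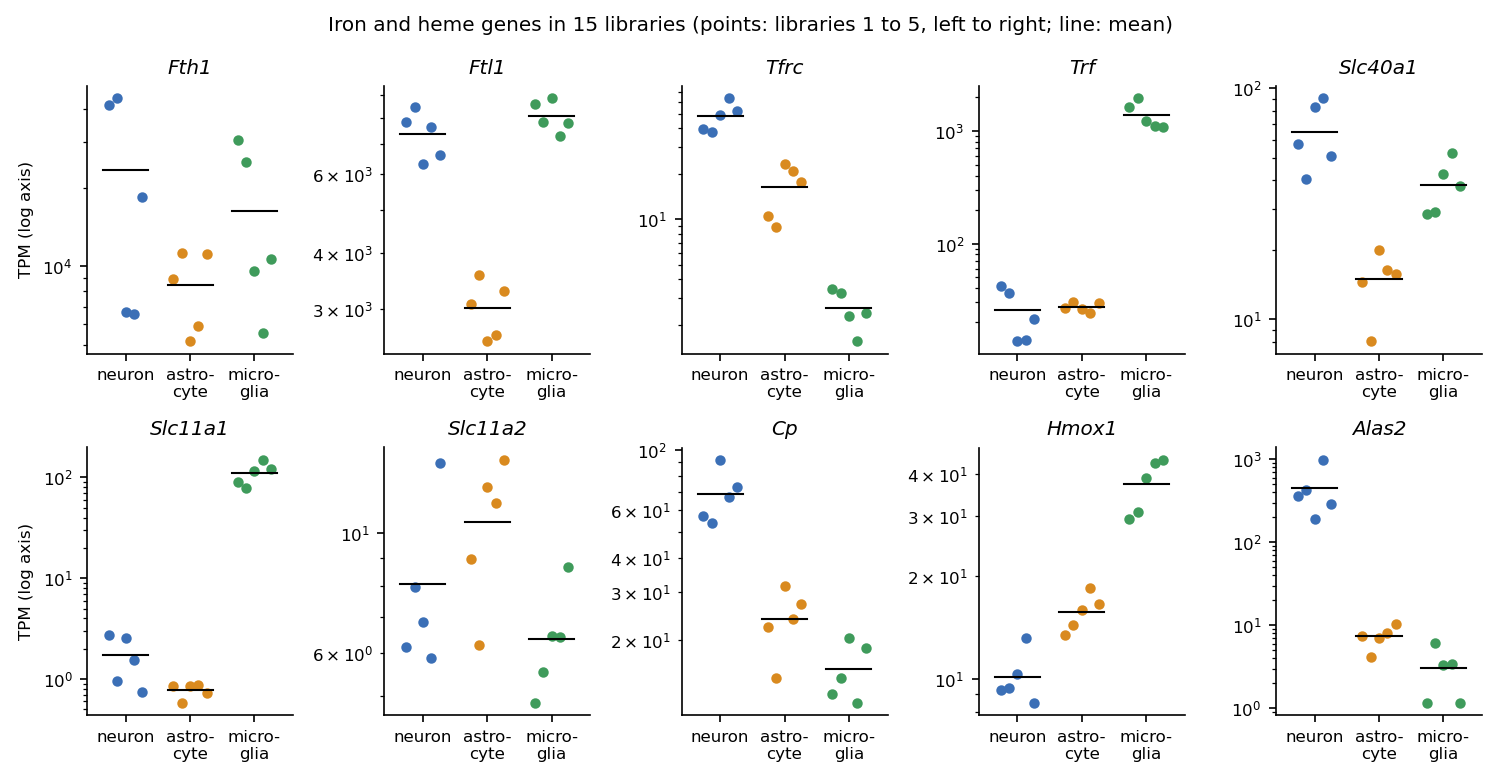
TPM (log axes, each panel with its own range) of the 10 genes in neuron, astrocyte and microglia libraries; each point is 1 library, numbered 1 to 5 from left to right, and lines are means of 5 libraries. Alas2 is above 188 TPM in every neuron library and below 10.4 TPM in all others, while Trf and Slc11a1 stand far higher in microglia.

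Ferritin, the iron storage shell of heavy and light chains, ranked high in every library: Fth1 held ranks 1 to 20 by TPM and Ftl1 ranks 10 to 40. Fth1 (chr19:9980598-9985098, plus strand) encodes the heavy chain, which oxidises iron as it enters. Its level in neuron libraries 1 to 5 was 41341, 44040, 6673, 6533 and 18348 TPM. In astrocytes it was 8893, 11193, 5148, 5878 and 11155 TPM, and in microglia 30478, 25099.6, 9554, 5521 and 10672 TPM. Libraries 1 and 2 were the highest in neurons and microglia, libraries 3 and 4 were the lowest in all 3 cell types, and all groups overlapped. Fth1 was the most abundant of all genes in neuron libraries 1 and 2. The means were 23387 ± 18287 TPM (neurons), 8454 ± 2853 TPM (astrocytes) and 16265 ± 10861 TPM (microglia) (SD, n = 5). The highest library exceeded the lowest 6.74-fold in neurons, 2.17-fold in astrocytes and 5.52-fold in microglia.

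The Fth1 difference between neurons and astrocytes was a log2 of 1.09 over all libraries. It was 0.41 without libraries 1 and 2, and 1.64 without libraries 3 and 4. Between neurons and microglia it was 0.35 as deposited, 1.04 after quantile normalization and -0.26 after median-of-ratios scaling, and it was 1.05 without microglia libraries 1 and 2, so no order of these cell types can be read.

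Ftl1 (chr7:45457944-45459884, minus strand) encodes the light chain, which helps the iron core form. Neuron libraries 1 to 5 held 7831, 8446, 6329.5, 7638 and 6604 TPM. Astrocytes held 3074, 3565, 2542, 2625 and 3289.5 TPM, and microglia 8575, 7827, 8853, 7308 and 7805 TPM. Every astrocyte library was lower than every other library, and neurons and microglia overlapped. The mean was 7370 ± 882 TPM (neurons), 3019 ± 435 TPM (astrocytes) and 8073 ± 628 TPM (microglia) (SD, n = 5). That is 2.44-fold higher in neurons and 2.67-fold higher in microglia than in astrocytes. The neuron minus microglia log2 difference was -0.14 as deposited, -0.75 after median-of-ratios scaling and 0.46 after quantile normalization. A second row of the table, the processed pseudogene Ftl1-ps1, shares reads with Ftl1 and stood at 4.83 to 6.73% of it, so both values carry that uncertainty.

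The balance of the chains differed between libraries. The ratio of Fth1 to Ftl1 TPM in neuron libraries 1 to 5 was 5.28, 5.21, 1.05, 0.855 and 2.78. It was 2.89, 3.14, 2.03, 2.24 and 3.39 in astrocytes, and 3.55, 3.21, 1.08, 0.755 and 1.37 in microglia. Light chain transcripts outnumbered heavy chain transcripts in 1 neuron and 1 microglia library, both numbered 4, and in no astrocyte library. Together the chains made up 1.3 to 5.25% of all TPM in neurons, 0.769 to 1.48% in astrocytes and 1.28 to 3.91% in microglia.

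The variation of Fth1 within cell types was shared with mitochondrial genes. After subtraction of cell type means over the 15 libraries, the genes most like Fth1 were Ndufb9 (r = 0.99), Cox4i1 (r = 0.99) and Cox8a (r = 0.988), all parts of the respiratory chain. Cox4i1 stood at 9610 and 10478 TPM in neuron libraries 1 and 2, and at 2283 and 2512 TPM in libraries 3 and 4. These correlations share libraries, are a description without a test, and say nothing of control. Markers of mature oligodendrocytes moved with the same libraries. Their sum was 8389, 10291, 127, 158 and 1524 TPM in neuron libraries 1 to 5. Their part in the Fth1 values was not tested.

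**Figure D2:**
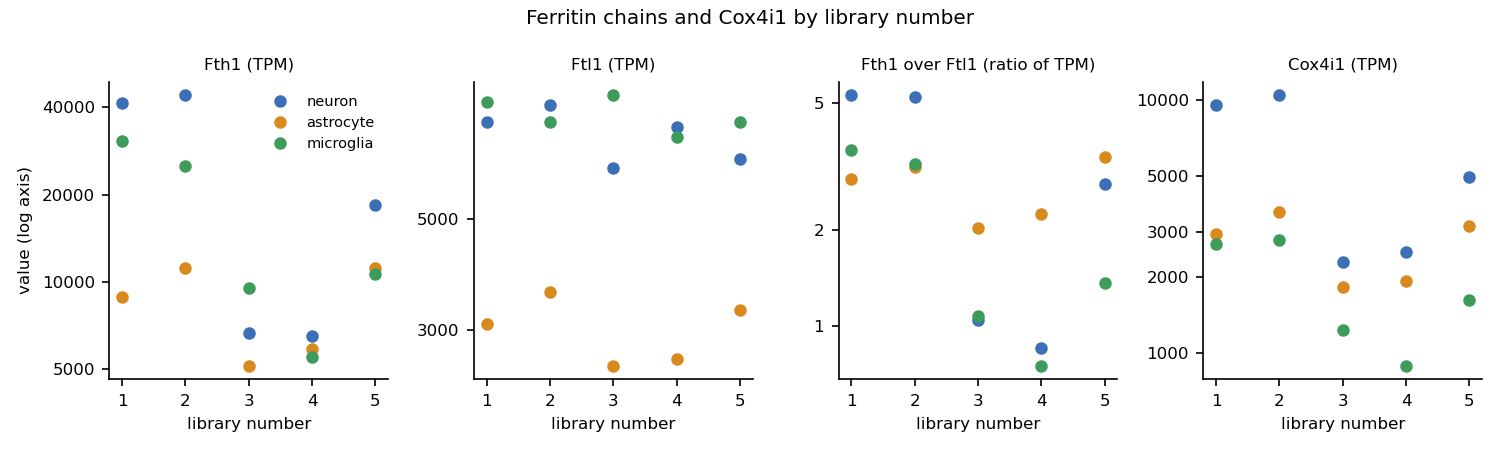
Fth1, Ftl1, the ratio of Fth1 to Ftl1 TPM, and Cox4i1 (log axes) by library number in neurons, astrocytes and microglia; each point is 1 library. Fth1 and Cox4i1 are higher in libraries 1 and 2 than in 3 and 4 of every cell type, while Ftl1 stays between 2542 and 8853 TPM with astrocytes lowest.

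Trf and Tfrc, the carrier and the receptor of the main uptake route, were high in different cell types. Trf (chr9:103204001-103230444, minus strand) encodes transferrin, the iron carrier that oligodendrocytes also make in brain. Microglia libraries 1 to 5 held 1614, 1952, 1225, 1099.6 and 1081 TPM. Neuron libraries held 42.2, 36.3, 13.5, 14.0 and 21.4 TPM, and astrocyte libraries 26.5, 30.6, 26.0, 24.0 and 29.8 TPM. Every microglia library was higher than any other library, while neurons and astrocytes overlapped. The microglia mean of 1394 ± 379 TPM compared with 25.5 ± 13.1 TPM in neurons and 27.4 ± 2.75 TPM in astrocytes (SD, n = 5), which is 54.7-fold and 50.9-fold higher. The mature oligodendrocyte markers summed to 69449, 51578, 6670, 250 and 8131 TPM in microglia libraries 1 to 5. Microglia library 4, with the lowest sum, held 1099.6 TPM of Trf. Without microglia libraries 1 and 2 the log2 differences were -5.57 for neuron minus microglia and -5.33 for astrocyte minus microglia, against -5.82 and -5.58 with them. Within the neuron libraries Trf was highest in libraries 1 and 2, where the oligodendrocyte sum was also highest. The part of oligodendrocyte RNA in the Trf values of either cell type was not tested.

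Tfrc (chr16:32608920-32632794, plus strand) encodes the transferrin receptor, the protein that brings iron-laden transferrin into the cell. Neuron libraries 1 to 5 held 39.6, 37.6, 48.9, 63.3 and 52.2 TPM, astrocytes 10.4, 8.93, 23.2, 20.9 and 17.6 TPM, and microglia 3.43, 3.22, 2.29, 1.55 and 2.4 TPM. No groups overlapped, and the order was neurons, astrocytes, microglia. The means were 48.3 ± 10.4, 16.2 ± 6.31 and 2.58 ± 0.76 TPM (SD, n = 5). The neuron mean was 2.98-fold that of astrocytes and 18.7-fold that of microglia, and the astrocyte mean was 6.29-fold that of microglia. Brain capillary endothelium is known for a high level of this receptor, and the endothelial marker sum followed the same order of cell types. Its part in the Tfrc values was not tested.

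**Figure D3:**
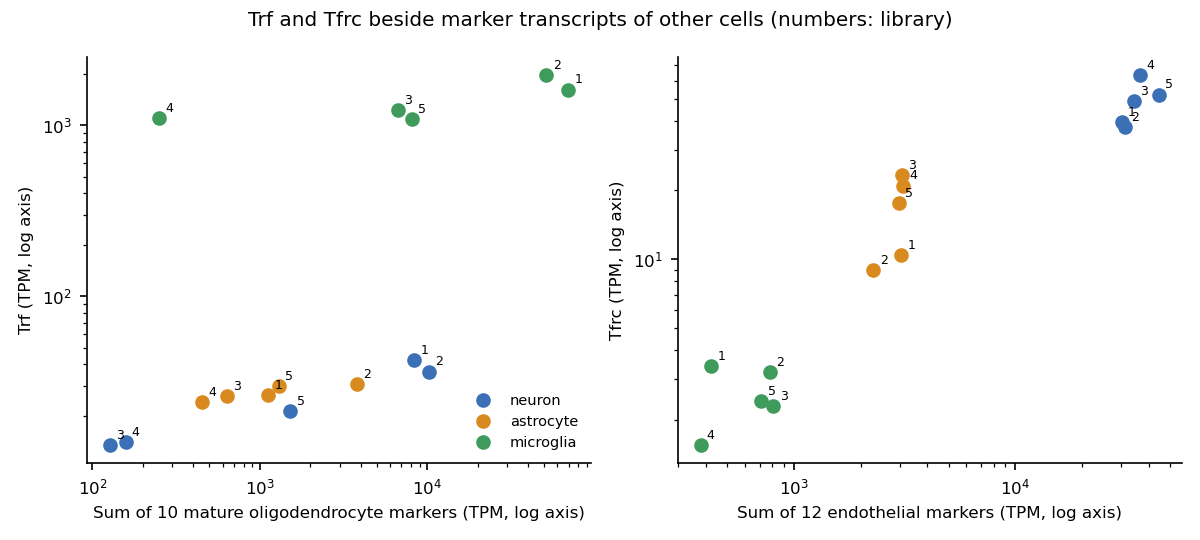
Left, Trf TPM against the summed TPM of 10 mature oligodendrocyte markers; right, Tfrc TPM against the summed TPM of 12 endothelial markers (all axes log; points are libraries with their numbers). Microglia library 4 has 250 TPM of oligodendrocyte markers and 1099.6 TPM of Trf, and the 3 cell types are ordered alike on both axes of the right panel.

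The transporters that move iron out of endosomes or phagosomes gave a low gene and a microglia-high one. Slc11a2 (chr15:100387898-100425072, minus strand), the divalent metal transporter of the transferrin route, was at 6.15, 7.95, 6.86, 5.88 and 13.5 TPM in neurons. It was at 8.97, 6.21, 12.2, 11.4 and 13.7 TPM in astrocytes, and at 4.85, 5.54, 6.44, 6.42 and 8.66 TPM in microglia. All groups overlapped, and the means were 8.07 ± 3.14, 10.5 ± 2.94 and 6.38 ± 1.44 TPM (SD, n = 5). The neuron minus microglia log2 difference was 0.26 as deposited but -0.28 after median-of-ratios scaling and -0.21 after quantile normalization.

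Slc11a1 (chr1:74375195-74386062, plus strand) encodes the phagosomal metal transporter of macrophages. Microglia libraries 1 to 5 held 89.9, 78.5, 116.6, 149.9 and 122 TPM. The other libraries lay between 0.58 and 2.76 TPM, all below every microglia library. The microglia mean of 111 ± 28.2 TPM was 65.1-fold that of neurons (1.71 ± 0.913 TPM) and 143-fold that of astrocytes (0.78 ± 0.126 TPM) (SD, n = 5). Neutrophils and monocytes also use this gene, and their marker sum was 757, 930, 1005, 1008 and 372 TPM in microglia libraries 1 to 5. Their part in the Slc11a1 values was not tested.

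Slc40a1 and Cp, which act in iron export, had their highest means in the neuron libraries, with an overlap with microglia for Slc40a1. Slc40a1 (chr1:45908068-45926523, minus strand) encodes ferroportin, the known cellular iron exporter. Neuron libraries 1 to 5 held 57.3, 40.7, 83.3, 90.7 and 51.1 TPM, astrocytes 14.6, 8.02, 20.0, 16.4 and 15.7 TPM, and microglia 28.7, 29.1, 42.4, 52.6 and 37.7 TPM. Astrocytes were lower than all other libraries, and neurons and microglia overlapped as groups. Between libraries of the same number, the neuron library was higher than the microglia library in 5 of 5 pairs. The labels do not state such a pairing. The same count was 4 for Fth1, 2 for Ftl1 and 4 for Slc11a2, whose neuron and microglia groups also overlapped. The Slc40a1 means were 64.6 ± 21.4 TPM (neurons), 14.9 ± 4.36 TPM (astrocytes) and 38.1 ± 10 TPM (microglia) (SD, n = 5). Against astrocytes this was 4.33-fold in neurons and 2.55-fold in microglia. The neuron minus microglia log2 difference was 0.72 as deposited and 0.12 after median-of-ratios scaling.

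Cp (chr3:19957054-20009145, plus strand) encodes ceruloplasmin, a copper ferroxidase that works beside ferroportin. Its levels were 57.0, 54.0, 92.0, 66.9 and 72.8 TPM in neuron libraries, 22.4, 14.5, 31.6, 23.8 and 27.2 TPM in astrocytes, and 12.6, 14.5, 20.3, 11.7 and 18.7 TPM in microglia. Every neuron library was higher than the others, while astrocytes and microglia overlapped. The neuron mean of 68.5 ± 15.1 TPM was 2.87-fold the astrocyte mean (23.9 ± 6.33 TPM) and 4.4-fold the microglia mean (15.6 ± 3.76 TPM) (SD, n = 5). The astrocyte minus microglia log2 difference was 0.57 as deposited and -0.08 after median-of-ratios scaling. For Slc40a1 and Cp, as for Tfrc, the neuron libraries were those with the high endothelial sum, and its part was not tested.

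Heme is broken down by the product of Hmox1 and its synthesis is started by that of Alas2, and these genes were high in different cell types. Hmox1 (chr8:75093621-75100589, plus strand) encodes heme oxygenase 1, the inducible enzyme that releases iron from heme. Neuron libraries 1 to 5 held 9.29, 9.4, 10.3, 13.2 and 8.5 TPM, astrocytes 13.4, 14.4, 16.0, 18.5 and 16.6 TPM, and microglia 29.5, 30.9, 38.8, 43.0 and 44.0 TPM. No groups overlapped, and the order was microglia, astrocytes, neurons. The means were 37.2 ± 6.75 TPM (microglia), 15.8 ± 1.97 TPM (astrocytes) and 10.1 ± 1.81 TPM (neurons) (SD, n = 5). The microglia mean was 2.36-fold that of astrocytes and 3.67-fold that of neurons, and the astrocyte mean was 1.56-fold that of neurons.

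Alas2 (chrX:150547375-150570638, plus strand) encodes the erythroid form of 5-aminolevulinate synthase, the first enzyme of heme synthesis. Neuron libraries 1 to 5 held 357, 430.05, 188, 991 and 289.5 TPM. Astrocytes held 7.33, 4.15, 7.05, 8.16 and 10.3 TPM, and microglia 1.16, 6.13, 3.32, 3.4 and 1.17 TPM. Every neuron library was far above the others, library 4 stood highest, and astrocytes and microglia overlapped. The neuron mean was 451 ± 315 TPM, against 7.41 ± 2.23 TPM in astrocytes and 3.04 ± 2.05 TPM in microglia (SD, n = 5). The neuron mean was 60.9-fold that of astrocytes and 149-fold that of microglia, and the log2 differences were 5.56 and 6.73.

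Many other genes of red blood cells, but not all, had higher means in the same libraries. Of 28 genes in the red cell list, 21 were in the table. The adult globin genes, searched by name, had no row there and so were not analysed. The list summed to 887, 941, 766, 1740 and 1030 TPM in neuron libraries 1 to 5, to 186 to 227 TPM in astrocytes and to 47.7 to 199 TPM in microglia. Hbq1a, a globin gene with a near-identical copy and so an uncertain level, was in neurons at 19.1, 13.9, 12.9, 32.8 and 19.4 TPM. Bpgm, which makes the regulator of hemoglobin's oxygen affinity, was at 299, 348, 198, 705 and 243 TPM. Library 4 was the highest for both, as for Alas2. Of the 21 genes, 9 were under 1 TPM in every neuron library. Mean TPM was higher in astrocytes than in neurons for Rhag (1.61 and 0.21), Klf1 (0.708 and 0.312) and Ank1 (0.896 and 0.844). Ermap was highest in microglia, at 0.952 TPM against 0.298 TPM in neurons, and Gata1 averaged at most 0.034 TPM in any cell type. The genes whose variation was most like that of Alas2 were Ube2l6 (r = 0.888), Isg20 (r = 0.87) and Fam192a (r = 0.838), over 15 libraries after subtraction of cell type means. The part of red cell RNA in the Alas2 level was not tested.

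**Figure D4:**
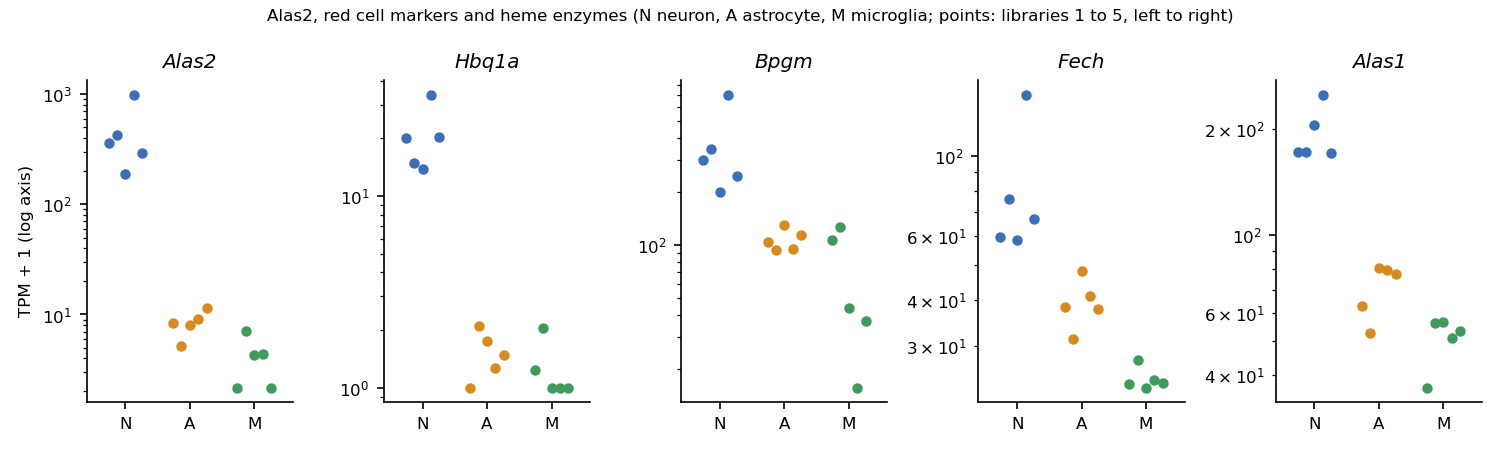
TPM + 1 (log axes, each panel with its own range) of Alas2, the red cell markers Hbq1a and Bpgm, and the heme synthesis genes Fech and Alas1 in neurons (N), astrocytes (A) and microglia (M); points are libraries 1 to 5 from left to right. Neuron library 4 is the highest in every panel.

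The other genes of the pathway were taken from 7 lists that leave out the 10 genes, with 79 genes in the table, of which 68 passed the filter and 11 did not. They were tested with limma, and a gene counted as changed at a Benjamini-Hochberg adjusted p under 0.05 over all tested genes and a log2 difference of at least 1. In astrocytes, 13 of the 68 genes (19.1%, against 10.2% of all tested genes) were higher than in both other cell types. In neurons 4 genes (5.88%, against 9.58%) were, and in microglia 6 (8.82%, against 7.42%). These counts were 10, 5 and 8 for astrocytes, neurons and microglia after median-of-ratios scaling, and 10, 5 and 7 after quantile normalization. No test of the shares was made. Among the genes counted, Cybrd1, Heph and Hpx passed the filter only through their astrocyte libraries, and Steap1 would not have passed without them. Steap2, counted below between astrocytes and microglia, also passed the filter only through its astrocyte libraries. Cd163 and Ltf would not have passed it without their microglia libraries. The place of these genes in the counts thus follows in part from the filter. Between neurons and astrocytes 20 of 68 changed (29.4%, background 25.6%), 6 of them higher in neurons (8.82%, background 12.9%) and 14 in astrocytes (20.6%, background 12.7%). Between neurons and microglia 25 changed (36.8%, background 39.3%), 18 higher in neurons (26.5%, background 29.5%) and 7 in microglia (10.3%, background 9.74%). Between astrocytes and microglia 34 changed (50%, background 42.5%), 25 higher in astrocytes (36.8%, background 32.3%) and 9 in microglia (13.2%, background 10.2%). The last 2 splits depend on the scaling. Median-of-ratios scaling gave 10 and 11 between neurons and microglia and 16 and 12 between astrocytes and microglia, and quantile normalization gave 13 and 9, and 16 and 11.

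Among 11 tested genes of cellular iron uptake, 6 were higher in astrocytes than in microglia (54.5%, background 32.3%) and 2 lower (Lcn2 and Ltf, 18.2%, background 10.2%). Of the 6, Cybrd1 and Steap2 entered the test only through their astrocyte libraries, and Steap1 would not have entered without them. That count therefore follows in part from the filter. After quantile normalization 3 were higher and 2 lower. Ltf, lactoferrin, no longer passed there without astrocyte library 1, 2 or 5 or microglia library 5 (-0.73 to -0.95, against -1.03 with all libraries). Steap3, an endosomal reductase that readies iron for Slc11a2, was at 19.3 ± 4.68 TPM (astrocytes), 8.71 ± 3.49 TPM (neurons) and 1.69 ± 0.466 TPM (microglia) (SD, n = 5). Its astrocyte minus microglia log2 difference was 2.90 (limma adjusted p = 1.22e-08). Its neuron minus astrocyte difference of -1.13 became -0.87 without neuron library 5, under the limit of 1. Against astrocytes 2 uptake genes were higher in neurons. Lcn2, which carries iron bound to siderophores, was at 20.4 ± 6.92 TPM (neurons), 1.95 ± 0.595 TPM (astrocytes) and 10.4 ± 2.32 TPM (microglia) (neuron minus astrocyte 2.80, limma adjusted p = 3.89e-08). Slc39a8, a zinc and iron importer, was at 9.87 ± 2.99, 2.85 ± 0.873 and 2.11 ± 0.526 TPM in the same order, with log2 differences of 1.48 and 1.78. Slc22a17, the proposed receptor of Lcn2, was highest in astrocytes (124 ± 31.3 TPM) and lowest in microglia (25.9 ± 4.82 TPM; log2 difference 2.20, limma adjusted p = 1.54e-08).

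Genes that work with ferritin stayed under the log2 limit of 1, while some regulators of iron passed it. None of the 5 tested ferritin partners changed by limma in any comparison, as no log2 difference reached 1. An unadjusted p under 0.05 was found for 2, 2 and 3 between neurons and astrocytes, astrocytes and microglia, and neurons and microglia. The last 3 were Glrx3, Pcbp2 and Bola2, higher in neurons by 0.85, 0.67 and 0.84 without overlap. Their adjusted p also lay under 0.05 (limma adjusted p = 4.83e-07, 4.21e-04 and 6.85e-04). Ncoa4, which delivers ferritin to lysosomes, was at 82.0 ± 14.5 TPM (neurons), 68.2 ± 15.2 TPM (astrocytes) and 68.3 ± 7.0 TPM (microglia) (SD, n = 5). Heph, a ferroxidase related to Cp, was at 3.06 ± 0.279 TPM in astrocytes against 0.662 ± 0.187 in neurons and 0.166 ± 0.119 in microglia (astrocyte minus microglia 1.80, limma adjusted p = 3.61e-10). It entered the test only through its astrocyte libraries, so that p-value is a description. Of 5 tested regulators, Aco1, Bmp6 and Hfe changed in at least 1 comparison, as did 57.9% of all tested genes. Aco1, iron regulatory protein 1, was at 16.4 ± 3.65 TPM (astrocytes), 5.78 ± 1.31 TPM (neurons) and 4.88 ± 0.437 TPM (microglia). Its neuron minus astrocyte difference was -1.35 (limma adjusted p = 2.83e-06). Its astrocyte minus microglia difference of 1.54 fell to 0.93 after median-of-ratios scaling. Ireb2, iron regulatory protein 2, stayed at 2.51 to 3.01 TPM on average in the 3 cell types and Fbxl5, which targets it for destruction, at 17.1 to 23.1 TPM. Neither passed the test in any comparison.

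Hfe, which associates with the transferrin receptor, was at 79.0 ± 17.4 TPM (microglia), 14.3 ± 5.87 TPM (neurons) and 10.2 ± 2.18 TPM (astrocytes) (SD, n = 5). Both differences from microglia passed, at -2.45 for neurons (limma adjusted p = 5.24e-08) and -2.83 for astrocytes (limma adjusted p = 6.45e-09). Bmp6, the signal that raises hepcidin in liver, was at 6.0 ± 1.64 TPM (astrocytes), 2.29 ± 0.933 TPM (neurons) and 0.496 ± 0.170 TPM (microglia). Its astrocyte minus microglia difference was 2.21 (limma adjusted p = 8.60e-09). The difference of neurons from astrocytes, -1.10, was -0.97 without astrocyte library 3, and that from microglia, 1.11, was 0.95 without neuron library 3 and 0.41 after quantile normalization.

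Mitochondrial iron and iron-sulfur cluster genes were the largest list, and all 21 were tested. Between astrocytes and microglia 11 were higher in astrocytes (52.4%, background 32.3%) and 1 in microglia (Slc25a37). Between neurons and microglia 7 were higher in neurons (33.3%, background 29.5%), near the share of all genes. These counts turned on the scaling. Median-of-ratios scaling gave 5 and 2 genes higher in astrocytes and in microglia, and 2 higher in neurons than in microglia, and quantile normalization gave 8 and 1, and 4. Between neurons and astrocytes 4 were higher in astrocytes (19%, background 12.7%), among them Lyrm4, Fdxr and Abcb8, and 1 in neurons (Slc25a37). Lyrm4, which stabilises the cysteine desulfurase, was at 50.1 ± 3.92 TPM (astrocytes), 9.96 ± 1.53 TPM (neurons) and 4.69 ± 0.755 TPM (microglia) (SD, n = 5). Its differences were -2.23 for neuron minus astrocyte (limma adjusted p = 3.92e-10) and 3.17 for astrocyte minus microglia (limma adjusted p = 1e-12). Fdxr, which feeds electrons to mitochondrial ferredoxins, was at 20.2 ± 4.14 TPM (astrocytes), 3.66 ± 1.0 TPM (neurons) and 4.84 ± 0.904 TPM (microglia). Bola3, a late factor of cluster transfer, was at 232 ± 48.6 TPM (astrocytes), 163 ± 5.36 TPM (neurons) and 44.7 ± 13.9 TPM (microglia). Slc25a37, which imports iron into mitochondria and is abundant in erythroid precursors, was at 5.08 ± 3.23 TPM (neurons), 1.39 ± 0.423 TPM (astrocytes) and 4.28 ± 1.23 TPM (microglia). Without neuron library 4, at 10.9 TPM, its neuron minus astrocyte difference of 1.24 became 0.97, under the limit.

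The 8 enzymes of heme synthesis other than Alas2 did not share 1 pattern. Alas1, the housekeeping form of its first enzyme, was at 194 ± 34.9 TPM (neurons), 69.5 ± 12.3 TPM (astrocytes) and 49.7 ± 8.11 TPM (microglia) (SD, n = 5). It was higher in neurons than in astrocytes by 1.47 (limma adjusted p = 4.91e-07) and than in microglia by 1.94 (limma adjusted p = 6.32e-09). Alad, the next enzyme, was at 76.3 ± 19.0, 47.5 ± 3.51 and 21.8 ± 4.88 TPM in the same order, and passed against microglia with 1.76 in neurons and 1.12 in astrocytes, the latter falling to 0.45 after median-of-ratios scaling. Uros and Urod, which act on the ring of the molecule, passed in no comparison. Urod, at 94.3 ± 20.9, 97.4 ± 2.49 and 52.0 ± 3.87 TPM in the same order, missed only the log2 limit against microglia. Its differences there were 0.82 in neurons (limma adjusted p = 3.76e-05) and 0.89 in astrocytes (limma adjusted p = 1.31e-05). Ppox was higher in astrocytes (49.8 ± 8.02 TPM) than in neurons (21.2 ± 4.53 TPM; -1.21, limma adjusted p = 2.01e-05).

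Fech, which inserts the iron, was at 80.7 ± 37.3 TPM (neurons), 38.4 ± 6.11 TPM (astrocytes) and 23.4 ± 1.73 TPM (microglia) (SD, n = 5). It passed between neurons and microglia (1.65, limma adjusted p = 1.11e-06) and missed the limit between neurons and astrocytes (0.97). Cpox was called higher in microglia, by 1.07 against neurons and 1.46 against astrocytes, through some of the libraries. Microglia libraries 1 to 5 held 41.6, 46.9, 20.0, 6.32 and 12.4 TPM of Cpox. Without microglia libraries 1 and 2, where oligodendrocyte markers were highest, the differences were -0.33 for neuron minus microglia and -0.73 for astrocyte minus microglia, and neither passed. The difference from neurons also missed the limits without microglia library 1 (-0.81), microglia library 2 (-0.77), neuron library 4 or neuron library 5.

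Of 13 genes of heme breakdown, binding and transport, Abcg2 and Flvcr2 had the largest differences. Abcg2, an exporter whose substrates include heme and porphyrins and which is known at the blood-brain barrier, was at 436 ± 78.1 TPM (neurons), 64.9 ± 14.4 TPM (astrocytes) and 37.3 ± 12.4 TPM (microglia) (SD, n = 5). Its log2 difference was 2.74 from astrocytes (limma adjusted p = 4.53e-09) and 3.55 from microglia (limma adjusted p = 5.69e-11). Flvcr2 followed the same order at 13.9 ± 2.97, 3.86 ± 0.874 and 0.448 ± 0.472 TPM (neuron minus microglia 3.39, limma adjusted p = 1.21e-10). The endothelial sum was highest in the neuron libraries here too, and its part was not tested. Slc48a1, which moves heme out of lysosomes, was at 346 ± 31.1 TPM (astrocytes), 81.7 ± 16.5 TPM (neurons) and 117 ± 92.5 TPM (microglia). Microglia libraries 1 to 5 held 182, 244, 80.7, 25.3 and 51.5 TPM of Slc48a1. It was highest in libraries 1 and 2, where oligodendrocyte markers were also highest, and their part was not tested. Hmox2, the constitutive heme oxygenase, was at 274 ± 31.5 TPM (microglia), 93.1 ± 14.3 TPM (neurons) and 66.1 ± 6.46 TPM (astrocytes). It was thus highest in microglia, as Hmox1 was, with log2 differences of -1.55 for neurons (limma adjusted p = 4.91e-09) and -2.03 for astrocytes (limma adjusted p = 9.58e-11). Hp and Cd163, which bind free hemoglobin and take up that complex, were at 10.1 ± 4.84 and 3.94 ± 1.52 TPM in microglia and at most 1.5 TPM on average elsewhere. Hp was at 9.46, 11.9, 11.1, 15.5 and 2.36 TPM in microglia libraries 1 to 5, and the neutrophil and monocyte sum was likewise lowest in library 5. The part of those cells in the Hp values was not tested. Cd163 is known from border macrophages, whose markers summed to 1320 to 1998 TPM in microglia libraries and to 38.6 to 79.3 TPM in the others, and their part was not tested.

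**Figure D5:**
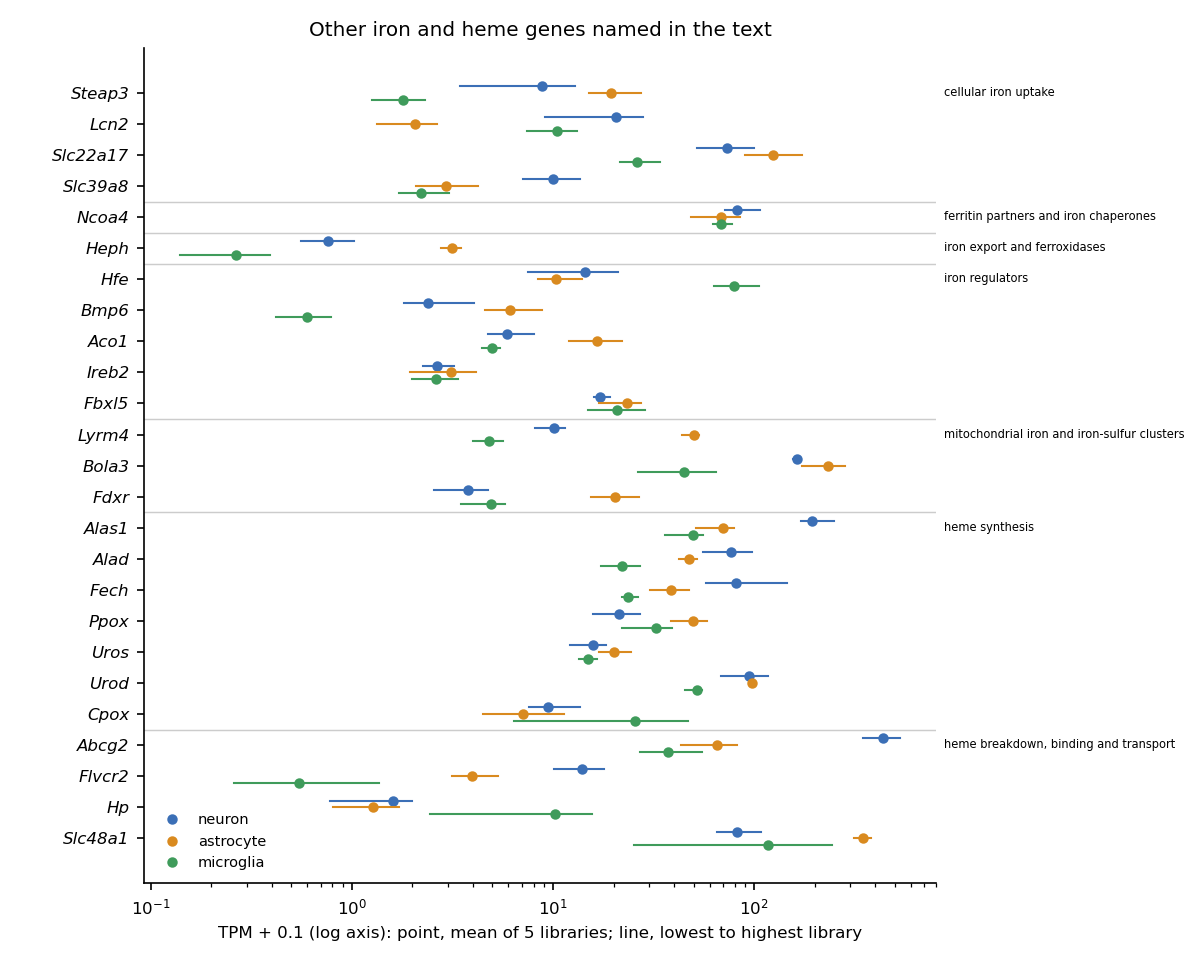
TPM + 0.1 (log axis) of other iron and heme genes in neurons, astrocytes and microglia, grouped by list; points are means of 5 libraries and lines run from the lowest to the highest library. Lyrm4, Fdxr and Heph are highest in astrocytes, Alas1, Abcg2 and Flvcr2 in neurons, and Hfe and Hp in microglia.

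The remaining genes varied within cell types in company of different genes. The closest by Pearson r, over 15 libraries after subtraction of cell type means, was Ftl1-ps1 for Ftl1 (0.957), Chpf for Tfrc (0.968), Tmem151b for Trf (0.939) and Tram1 for Slc40a1 (0.978). It was Hist1h2an for Slc11a1 (0.898), Adra2a for Slc11a2 (0.892), Fzd2 for Cp (0.915) and Nfam1 for Hmox1 (0.923). Hist1h2an was at 0 TPM in every astrocyte library and at 0 to 2.25 TPM in microglia, so its r rests on few values above 0. Among the 10 genes themselves the closest pair was Fth1 and Trf (0.927), followed by Slc40a1 and Hmox1 (0.694), while the ferritin chains Fth1 and Ftl1 reached 0.582. These values are over libraries that share cell types and numbers, and describe likeness within these libraries only.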

How the data were processed

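The deposited values were TPM per gene for 15 polyA RNA-seq libraries, 5 per cell type. The submitters' processing notes name the mm10 build and the tools RSEM (1.2.28), STAR (2.7.1a), DESeq2 (1.36.0) and Trim Galore (0.6.4), and DESeq2 was not run here. Every column summed to 1000000 TPM within rounding, so depth is unknown and no counting interval is given. Reads shared between paralogs or pseudogenes make such levels uncertain.

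Values were taken as log2(TPM + 1). Genes that reached 1 TPM in 5 or more libraries entered one limma 3.58.1 model (R 4.3.3) with a mean per cell type, moderated variances with a trend, and Benjamini-Hochberg adjustment over 13351 genes. A call needed an adjusted p under 0.05 and a log2 difference of at least 1. In simulated data, altered genes were drawn only from genes above a minimum mean level, with independent noise. For neuron minus astrocyte, neuron minus microglia and astrocyte minus microglia, a log2 change of 1.5 was recovered in 96, 91 and 95 of 100. In the same order, 1, 9 and 1 unaltered genes were called. Recovery for genes of low level, or under variation shared between genes, was not simulated.

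The 10 genes, the 7 pathway lists and the 12 marker lists were chosen with earlier results of these data known. Named by rule were the 10 genes, Aco1, Ireb2, Fbxl5, Ncoa4, the 8 heme enzymes, up to 4 genes per list with the largest called difference and no overlap, and the 3 genes most like each of the 10. Ltf, Abcb8, Slc25a37, Hmox2 and Cd163 were added after their values were seen, as were the red cell genes shown. Results for some genes are not reported here. Hairpins were sought in GENCODE vM21 transcripts with Python 3.11.15. In all, 26 alternatives were run. Pairing of same-numbered libraries was checked by correlating their deviations from the group mean. Neuron with microglia pairs gave 0.216 to 0.382, each over the limit of 0.1. Neuron with astrocyte pairs (-0.0329 to 0.233) and astrocyte with microglia pairs (-0.011 to 0.249) lay partly below it. The pairing comes from the data alone and is not stated in the labels.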

Additional observations from a re-analysis of the deposited data

Results flagged for a closer look

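In groups of 5 libraries, 1 library stood apart from the rest in 10 of 126 groups examined, by a test that chance meets in about 1 in 20 groups. Among the 10 genes this was Slc11a2 in neuron library 5, at 13.5 TPM against 5.88 to 7.95 TPM in the other neuron libraries. Fech stood apart in neuron library 4, at 146 TPM against 57.5 to 74.9 TPM, and in microglia library 2, at 26.4 TPM against 22 to 23.2 TPM. Bmp6 was at 3.93 TPM in neuron library 3, against 1.72 to 2.16 TPM. Flvcr2 was at 1.26 TPM in microglia library 3, against 0.16 to 0.47 TPM. Microglia library 1 was low for Alas1, at 35.8 TPM against 49.9 to 55.6 TPM, and for Urod, at 45.3 TPM against 52.3 to 54.6 TPM. Slc25a37 was at 10.9 TPM in neuron library 4, against 3.57 to 3.74 TPM in the other neuron libraries. Ltf was at 5.01 TPM in astrocyte library 3, against 0 to 0.89 TPM, and at 7.18 TPM in microglia library 5, against 1.12 to 2.51 TPM.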

How the results depend on the processing

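Each of the 3 differences of the 10 genes was recomputed, 600 values in all, of which 569 moved by less than the spread between replicates and 31 by more. That spread was the larger SD of log2(TPM + 1) in the cell types compared, which is wide for Fth1. Leaving out libraries of the cell type outside a comparison cannot move its difference, so part of the 569 were fixed in advance. None of the differences past the limits changed sign. Of the 68 other pathway genes, the count changed between neurons and astrocytes was 20, and 13 under a filter of 5 TPM, which left 48 genes to test. The same filter gave 7 genes highest in astrocytes in place of 13, and 3 highest in microglia in place of 6. Leaving out 1 library at a time gave 19 to 22 changed genes between neurons and astrocytes, 24 to 26 between neurons and microglia, and 32 to 35 between astrocytes and microglia. With the replicate number as a block, the counts were 20, 25 and 34, as without it, and over all genes 3433, 5256 and 5694. Of the 54 calls on named pathway genes, 11 were lost under at least 1 alternative. Depth cannot be read from TPM, so low genes such as Heph or Slc11a1 outside microglia carry an unknown counting error. The cause of the shifts under scaling was not tested.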
